A study of Microhyla fissipes with 9 samples.

Results

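In tadpoles of the frog Microhyla fissipes, 132 of 426250 assembled unigenes (0.0310%) were listed at exactly 0 in all 3 unexposed control libraries and at 1 FPKM or more in all 6 libraries of tadpoles kept in glyphosate-based herbicide (GBH). A unigene is a transcript sequence assembled from the reads without a genome, and FPKM counts sequenced fragments, corrected for the length of the transcript and the depth of the library. The 132 were chosen by these values and by a mean over the 9 libraries of at least 1 FPKM, which 147577 unigenes reached, so they made up 0.0894% of that set. Their absence in controls and presence under exposure is therefore a description and was given no test.

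Tadpoles, given in the labels as Gosner stage 30 (a larval stage with limb buds), were held for 10 days in 0, 60 or 90 mg/L GBH, with 20 animals in each container of 1000 mL and 5 containers per dose. The poly-A RNA of whole tissue was sequenced in 3 libraries per dose, numbered 1 to 3 in the labels. Which containers the libraries were made from, and from how many animals, is not stated, so the p-values below measure the spread between libraries, which may be technical. The files pair the identifiers with no gene name, so no function, tissue or cell type can be given to any of the 132 and tissue markers were not examined.

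Glyphosate blocks an enzyme of aromatic amino acid synthesis that plants and many microbes have and animals lack, and its commercial formulations also hold surfactants. A tadpole takes up dissolved substances through gills, skin and gut. In an assembly from short reads, 1 gene can give several unigenes (isoforms, alleles or fragments of 1 transcript), and RNA from food or microbes in the gut can be assembled too. A value of 0 says that no fragment was assigned to that unigene in that library, or too little to show after rounding. In RNA from whole animals, fewer cells of a type and less RNA per cell cannot be told apart.

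Presence in every exposed library was common, and absence from every control was rare among such unigenes. Of the 60269 unigenes at 1 FPKM or more in all 6 exposed libraries with the same minimum mean, 55428 (92.0%) were above 0 in all 3 controls, 3975 (6.60%) were at 0 in 1 control, 734 (1.22%) in 2 controls and 132 (0.219%) in all 3. The share was 0.269% among those with a mean exposed level of 1 to 2 FPKM and 0.331% at 2 to 5 FPKM. It was 0.194% at 5 to 10 FPKM, 0.157% at 10 to 20 FPKM and 0.176% at 20 to 50 FPKM. None of the 4967 with a mean of 50 FPKM or more was among the 132. The mirror pattern, with 1 FPKM or more in all 3 controls and 0 in all 6 exposed libraries, was shown by 157 unigenes. That rule asks for presence in fewer libraries and absence in more, so 157 and 132 are not like counts.

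Before the number is read against exposure, the libraries themselves have to be described. On the first principal component, which held 22.7% of the variance, control replicate 2 (304), 60 mg/L replicate 2 (261) and 90 mg/L replicate 3 (160) lay apart from the other 6 libraries, which were between -174 and -62.7. These 3 come from 3 different doses. Controls had between 213161 and 230021 unigenes above 0, and exposed libraries between 224797 and 256232.

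The same rule was applied to every other choice of 3 libraries, asking for 0 in the chosen 3 and 1 FPKM or more in the remaining 6. The 84 choices gave between 24 and 215 unigenes, with a median of 65.0. The 132 of the controls stood in place 6, with 5 choices above and 78 below. The highest number, 215, came from the 3 libraries that lay apart. Next were 60 mg/L replicates 1 and 3 with 90 mg/L replicate 1 (152), then controls 1 and 3 with 90 mg/L replicate 1 (151). The last 2 above the controls were control replicate 3 (142) and control replicate 1 (136), each with 60 mg/L replicate 1 and 90 mg/L replicate 1.

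The number moved with the libraries chosen. Choices that held 90 mg/L replicate 1 had a median of 89.5 unigenes (28 choices), against 55.0 for those without it, and that library is in 4 of the 5 choices above the controls. Choices that held control replicate 2 had a median of 78.5, against 57.0 without it. The 20 choices of exposed libraries only, in which all 3 controls are among the libraries where presence is required, gave 29 to 152 with a median of 58.0. The number for the controls was thus above the median of all choices and within the range that mixed and exposed-only choices gave.

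**Figure D1:**
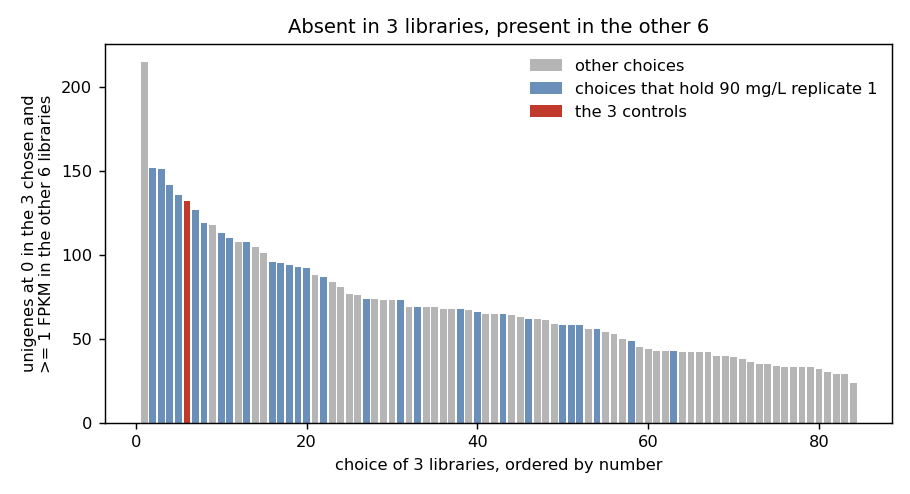
Number of unigenes (vertical axis) at 0 in 3 chosen libraries and at 1 FPKM or more in the other 6, for all 84 choices of 3 of the 9 libraries, ordered by number; each bar is 1 choice. The 3 controls (red, 132) are in place 6, behind 215 for the 3 libraries that lie apart and behind 4 choices that hold 90 mg/L replicate 1 (blue).

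The 132 were mostly of low level. Their mean over the 6 exposed libraries had a median of 4.17 FPKM and quartiles of 2.92 and 8.75, while the 60269 unigenes present in all exposed libraries had a median of 6.75 and quartiles of 3.69 and 15.3. In every exposed library 65 of the 132 reached 2 FPKM, 24 reached 5 FPKM, 5 reached 10 FPKM and 1 reached 20 FPKM. The other 67 had a lowest value between 1 and 2 FPKM.

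The unigene with the highest lowest value was Cluster-47276.121244. It was listed at 0 in the 3 controls, at 57.08, 37.71 and 76.75 FPKM in 60 mg/L replicates 1 to 3, and at 71.68, 23.27 and 30.90 FPKM in 90 mg/L replicates 1 to 3. Its values at the 2 doses overlapped, and the lowest was 90 mg/L replicate 2. The second was Cluster-47276.281705, also listed at 0 in every control. It had 18.95, 28.28 and 18.33 FPKM at 60 mg/L and 24.45, 41.37 and 38.20 FPKM at 90 mg/L, where only 60 mg/L replicate 2 lay above the lowest library of the higher dose.

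At the edge of the rule, the member closest to the limit was Cluster-47276.29475, with 3.36, 4.0 and 2.07 FPKM at 60 mg/L and 1.0, 1.51 and 1.22 FPKM at 90 mg/L. Just outside was Cluster-50821.0, also at 0 in the controls, with 2.83, 3.16 and 1.15 FPKM at 60 mg/L and 3.53, 1.22 and 0.98 FPKM at 90 mg/L. A further unigene, Cluster-47276.159309, missed the rule only through 0.02 FPKM in control replicate 1, and its exposed values ran from 1.93 to 20.33 FPKM. In all, 11 members had a lowest exposed value of 1 to 1.1 FPKM, and 17 unigenes just outside had one from 0.9 to under 1 FPKM.

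Levels varied widely between exposed libraries. The highest exposed value of a member was a median of 4.05 times its lowest (range 1.51 to 35.1). The corresponding median was 2.81 over 26354 unigenes present in all exposed libraries with a mean between the members' quartiles. That set was matched on FPKM and not on fragments, which were few in the members counted (below). The larger ratio is therefore not read as a trait of the members. Over the 132, the correlation of log2 levels between 2 exposed libraries was 0.555 to 0.826 (Pearson's r across unigenes, which are not independent replicates and whose values in each library share 1 depth). In every library, 1 fragment gives more FPKM on a shorter transcript. The part of transcript length in these correlations was not tested.

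The summed level of the 132 was 972, 891 and 1170.4 FPKM in 60 mg/L replicates 1 to 3, and 1350.0, 1128.4 and 840 FPKM in 90 mg/L replicates 1 to 3. This was between 0.0284% and 0.0463% of all FPKM in a library. The lowest sums were in the 2 exposed libraries that lay apart, 60 mg/L replicate 2 and 90 mg/L replicate 3, which also held the lowest exposed value of 34 and 37 members. Among the 67 members whose fragments could be counted (below), these 2 libraries held the most fragments, 175 and 194. There 1 fragment was worth a median of 1.43 and 1.36 FPKM, against 1.63 to 2.61 FPKM in the other 4. Both of these libraries were above the other 4 for 10 members (7.58%), against 21.2% of all unigenes present in every exposed library, and below the other 4 for 24 members (18.2%), against 20.7%. The part of these 2 libraries in the levels of the members was not tested.

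**Figure D2:**
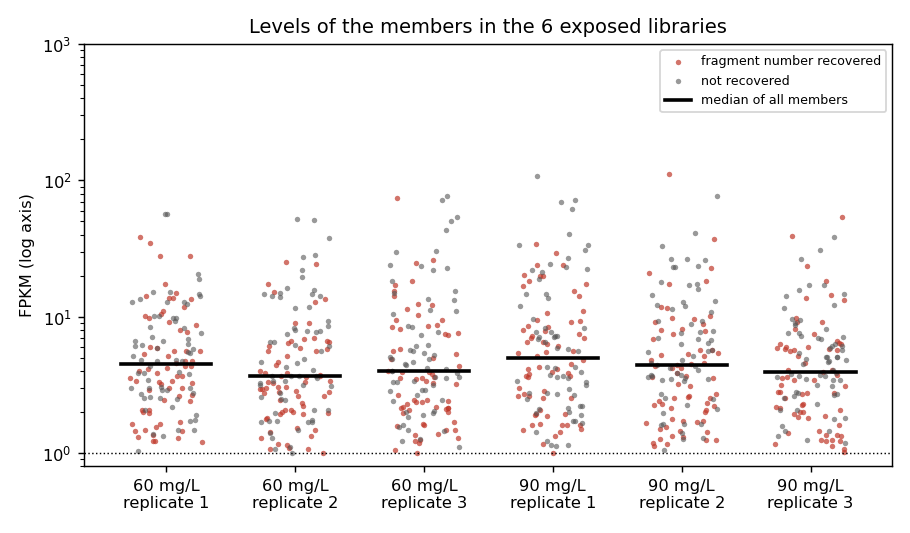
FPKM (log axis) of the 132 unigenes in each of the 6 exposed libraries; each point is 1 unigene, coloured by whether its number of fragments could be recovered, the black bar is the median and the dotted line is the limit of 1 FPKM. Medians lie between 3.66 (60 mg/L replicate 2) and 5.00 FPKM (90 mg/L replicate 1), and controls, all at 0, are not drawn.

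The low values of the table show how many sequenced fragments lay behind a level. Within a library, the lowest values of a unigene are whole multiples of what 1 fragment is worth, and that worth grows as the transcript gets shorter. Comparing low unigenes between libraries gave 1 curve of worth for each library and a depth relative to control replicate 1. The depth was read where 1 fragment was worth 0.25 FPKM in 60 mg/L replicate 1. The worth in 90 mg/L replicate 1 over that in control replicate 1 was 1.39 at 0.5 FPKM and 1.29 at 0.25 FPKM. It thus still moved with length, and the depths are approximate. The relative depths were 0.964 and 0.969 in the other controls, 0.866, 0.974 and 1.03 at 60 mg/L and 0.773, 0.889 and 1.08 at 90 mg/L, so 90 mg/L replicate 1 was the shallowest. Short unigenes were read where 1 fragment was worth 20 FPKM in 60 mg/L replicate 1. There it was worth 2.57 times as many FPKM in 90 mg/L replicate 1 as in control replicate 1, and 0.658 times as many in control replicate 2.

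**Figure D3:**
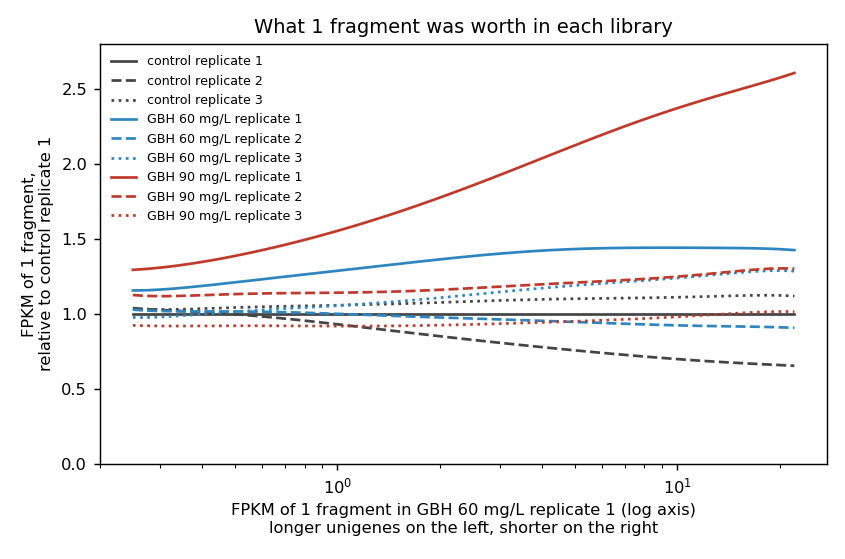
FPKM that 1 fragment is worth in each of the 9 libraries, divided by its worth in control replicate 1 (vertical axis), against its worth in 60 mg/L replicate 1 (log axis, shorter unigenes to the right); each line is 1 library. The line of 90 mg/L replicate 1 climbs to above 2.5 for short unigenes while that of control replicate 2 falls below 0.7.

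Whole numbers of fragments were recovered for 67 of the 132 (50.8%), each with a single solution within 0.05 of whole numbers and at most 20 fragments in a library. These 67 were counted on few fragments, which the limit of 20 partly sets. Of their 402 values in exposed libraries, 166 (41.3%) were exactly 1 fragment, 103 (25.6%) were 2 and 56 (13.9%) were 3. At most 5 fragments lay behind 373 values (92.8%). Over all 6 exposed libraries together a member had a median of 12 fragments, from 6 to 51.

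Single fragments recurred across members. In 60 of the 67, at least 1 exposed library had a single fragment, 28 had at most 3 fragments in every exposed library, 7 had at least 2 everywhere, and none had 5 or more everywhere. Counting 1 fragment was enough to pass the limit of 1 FPKM in all 6 exposed libraries for 49 of the 67. The 65 without a solution had a median mean level of 5.23 FPKM, against 3.77 FPKM for the 67, and their fragments are not known.

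A pair of members, picked after their values were seen, serve as examples and do not span the range. Cluster-47276.222695 had 10.99, 7.02 and 9.51 FPKM at 60 mg/L and 18.30, 9.58 and 7.50 FPKM at 90 mg/L, and each of these 6 values was 1 fragment. Its highest value was in 90 mg/L replicate 1, where 1 fragment of this unigene was worth 18.3 FPKM, against 7.63 FPKM in control replicate 1. Cluster-47276.255942 had 28.05, 8.93 and 74.01 FPKM at 60 mg/L and 24.15, 111.92 and 38.90 FPKM at 90 mg/L, which were 2, 1, 6, 1, 9 and 4 fragments in the same order. The recovered member with the most fragments, 51, was Cluster-47276.281846. It had 9, 4 and 10 fragments at 60 mg/L and 3, 12 and 13 at 90 mg/L.

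The values of 0 in the 3 controls were read as no fragment counted, and an expected total of up to 3 fragments over the group was taken as the limit. In FPKM this limit had a median of 1.42 over the 67 (0.282 to 11.8). It covers counting error only, and it holds for a unigene named beforehand. The members were chosen for their 0 in all 3 controls, so for them it is not a bound on the control level. The rule gives every member at least 1 fragment in each exposed library and a fragment was worth different FPKM in different libraries, so no fold against this limit is given. At this depth, even for a unigene named beforehand, the controls' level could be limited no further.

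The same recovery was run on unigenes present in all exposed libraries that had at least 1 control above 0. Fragment numbers could be recovered for 8.44% of those with no control at 0, 29.4% with 1 and 41.1% with 2. Their median fragments over the 6 exposed libraries were 34, 21 and 16, against 12 for the members recovered. Among the unigenes recovered, those with more controls at 0 thus had fewer fragments under exposure. The recovery accepts at most 20 fragments in a library and so selects unigenes with few fragments. It took a different share of each class, so these medians do not describe the classes as a whole.

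**Figure D4:**
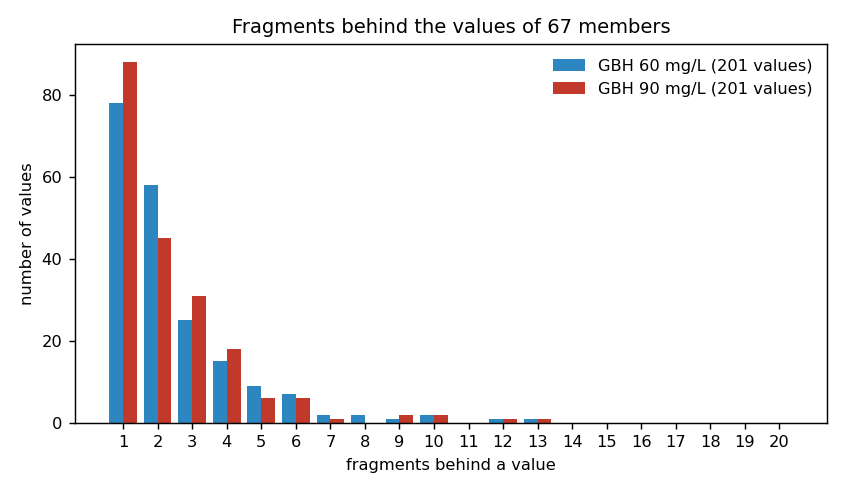
Number of values (vertical axis) by the number of fragments behind them (horizontal axis) for the 67 recovered members at 60 mg/L (blue) and 90 mg/L (red). Single fragments are the largest class at both doses, 166 values together, and few values rest on more than 5.

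The identifiers carry 1 further feature that the rule did not use. A unigene's identifier has a prefix, read here from its form as shared by sequences that the assembly grouped together. The prefix Cluster-47276 holds 78.7% of the table. It held 103 of the 132 (78.0%), against 98.6% of unigenes present in all exposed libraries. The remaining 29 members (22.0%) lay outside it, against 10.6% of unigenes present in all exposed libraries with 2 controls at 0, 4.60% with 1 and 0.983% with none. Over the 84 choices of 3 libraries the share outside was 0 to 28.9%, with a median of 8.33% and 2 choices above that of the controls.

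Prefixes that hold a single unigene were also frequent, with 21 of the 132 (15.9%) against 0.830% of unigenes present in all exposed libraries and 15.2% of the whole table. Among unigenes with at most 12 fragments over the exposed libraries, 9 of 34 members (26.5%) lay outside Cluster-47276, against 35 of 397 (8.82%) with at least 1 control above 0. The match was on fragments in exposed libraries only, and the 397 also had fragments in controls, where the members were listed at 0. These shares were given no test and are not read as a trait of the members.

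The 2 doses were then compared. The rule did not use the order of the doses, but it asked for 1 FPKM or more in every library of both. A unigene low or absent at 1 dose could not be a member, while the 147577 tested had no such limit. Closeness of the doses among the members is therefore partly set by the rule. At 90 mg/L none of the 132 differed from 60 mg/L (limma, Benjamini-Hochberg adjusted p under 0.05 over all unigenes tested), where 1 of the 147577 tested did (0.000678%). At an unadjusted p under 0.05 there was 1 member, against 2.97% of all tested. With 3 libraries per dose the 95% interval of a member's difference reached a median of 1.20 log2 units to either side, so differences of about that size were within the error.

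Over the 132, the median difference, 90 minus 60 mg/L, was 0.08 on the log2(FPKM + 1) scale, with quartiles of -0.19 and 0.34. The median was 0.00 over all unigenes tested and 0.01 over those present in all exposed libraries. Of the members, 74 were positive and 58 negative, and 125 lay within 1 log2 unit of 0. The SD of the library medians within a dose was 0.131, larger than this median difference. Without 90 mg/L replicate 1, the shallowest library, the median was -0.089.

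Groups did not overlap for 3 members. All 3 values at 90 mg/L were above all 3 at 60 mg/L for 1 member, where 3.02% of all tested showed that order, and below for 2, where 2.98% did. Both counts are under the background share, which is 4464 and 4394 of the 147577 tested. Those were not held to 1 FPKM or more in every exposed library, as the members were. The lower counts are therefore not read as a trait of the members. The member above was Cluster-24551.0, with 4.73, 7.47 and 7.80 FPKM at 60 mg/L and 13.82, 26.11 and 9.02 FPKM at 90 mg/L. Its difference was 1.08 log2 units with a 95% interval of 0.01 to 2.15 (SE 0.43, limma adjusted p = 1).

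Of the 2 below, Cluster-47276.29475, the member at the edge of the rule described above, had a difference of -0.86 (SE 0.35, interval -1.74 to 0.02, limma adjusted p = 1). Its 6 values were 4, 6 and 3 fragments at 60 mg/L and 1, 2 and 2 at 90 mg/L. The other, Cluster-47276.115405, had 3.99, 2.99 and 2.16 FPKM at 60 mg/L and 1.65, 1.16 and 1.85 FPKM at 90 mg/L, from 3, 3, 2, 1, 1 and 2 fragments. Its difference was -0.65 (SE 0.35, interval -1.52 to 0.22, limma adjusted p = 1). The 2 unigenes with the highest lowest value differed by -0.55 (Cluster-47276.121244, SE 0.49) and 0.63 (Cluster-47276.281705, SE 0.28), both with an adjusted p of 1.

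In fragments as counted the 2 doses were close, among members that by the rule had at least 1 fragment in each exposed library. The 67 recovered members had 500 fragments at 60 mg/L and 479 at 90 mg/L. By library these were 157, 175 and 168 at 60 mg/L and 127, 158 and 194 at 90 mg/L. Divided by relative depth they came to 181, 180 and 164 at 60 mg/L and to 164, 178 and 179 at 90 mg/L. That depth was read on longer unigenes, while 1 fragment of these members was worth a median of 1.36 to 2.61 FPKM. Where it was worth 2.60 FPKM in 90 mg/L replicate 1, this was 1.77 times its worth in control replicate 1. The ratio was 1.29 where the depth was read. The divided numbers therefore do not correct these members for depth, and no closeness of the doses is read from them. The library with the fewest fragments over the 67, 90 mg/L replicate 1, had 39 of its 67 values at a single fragment. Over all 132 members, whose fragments are only partly known, it had the highest median and the highest sum in FPKM of the 6.

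**Figure D5:**
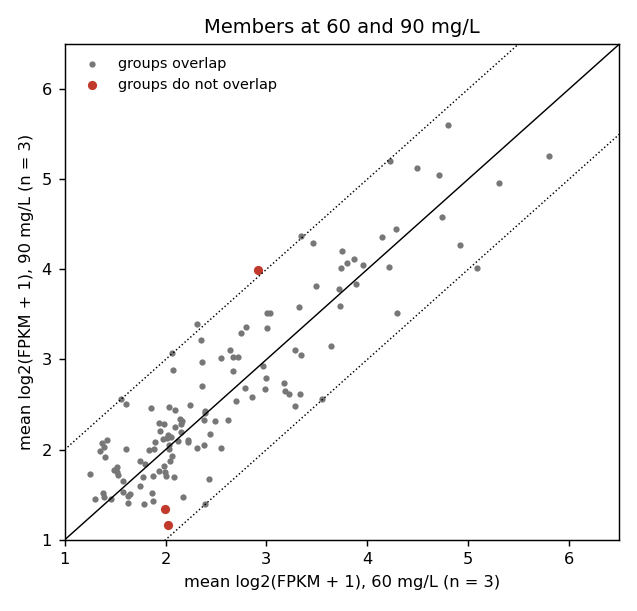
Mean log2(FPKM + 1) of the 132 unigenes at 90 mg/L (vertical axis, n = 3 libraries) against 60 mg/L (horizontal axis, n = 3 libraries); each point is 1 unigene, the solid line is equality and the dotted lines are 1 log2 unit from it. The points lie on both sides of equality, 125 of them within 1 log2 unit, and the 3 whose groups do not overlap are in red.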

How the data were processed

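RNA of whole tadpoles was measured in 9 libraries, and per the labels the authors deposited 1 table of FPKM per unigene. For the assembler, clustering tool, aligner and counter, names and versions were not given in the sources used here, and sequences, lengths and counts were not used here. All 9 columns were mapped to samples by title. The members and all choices were made with earlier results of these data known.

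Members were found on the values as deposited. For 90 against 60 mg/L, limma 3.58.1 (R 4.3.3) with empirical Bayes and a trend was run on log2(FPKM + 1) in the 6 exposed libraries, since the members, at 0 in every control, have no spread there; this does not hold for the other unigenes tested. It used the 147577 unigenes that reached a mean of 1 FPKM and Benjamini-Hochberg adjustment over all of them at 0.05. A pseudocount of 1 understates changes of low unigenes. Fragment numbers were derived from the steps of low FPKM values (tolerance 0.05), an analysis added after the data were seen. Both procedures were tested on simulated data, with limits. The fragment values were drawn from the fitted curves themselves, so errors of the curves could not show. The values for limma were drawn independently, without the structure between libraries described above. PCR copies are not independent molecules.

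Named unigenes are the 2 with the highest lowest exposed value and those at the edges of the rule. Up to 2 in each direction, with the largest differences among those whose doses do not overlap, are also named. Cluster-47276.222695 and Cluster-47276.255942 were picked as examples after their values were seen. Cluster-47276.281846 is named for its number of fragments.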

Additional observations from a re-analysis of the deposited data

How the results depend on the processing

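The number of members followed the limits. It was 223 at 0.5 FPKM or more, 65 at 2 FPKM, 24 at 5 FPKM and 39 with a mean of at least 5 FPKM. Leaving out 1 library drops a condition, which favours a larger set, and gave 192 to 430. The minimum mean was then taken over the libraries left, so a member could also drop out. Leaving out the 3 libraries that lie apart drops 3 conditions and gave 940. Other choices among the libraries left were not counted, so 940 has nothing to be set against. With controls of up to 0.1 FPKM the number was 133, without a minimum mean 134 and after median-ratio scaling 118. The place among the 84 choices was 2 at 0.5 FPKM, 3 at 5 FPKM and 6 to 9 otherwise. For 90 against 60 mg/L, 0 members were called by limma in all 16 alternatives (lowest adjusted p 0.302), with at most 7 (5.30%) at an unadjusted p under 0.05, without the 2 exposed libraries that lie apart, where 5.87% of all unigenes tested were. Over all unigenes tested, calls numbered 1 in the fit reported, 65 with all 9 libraries in the fit, 11 without the trend, 7 with a mean of at least 5 FPKM and 0 or 1 in the other 13 alternatives. The median difference lay between -0.09 and 0.16 over 14 alternatives and changed sign only without 90 mg/L replicate 1; leaving out 1 library gave -0.089 to 0.103. The 3 members whose doses do not overlap kept their direction wherever they were tested. What the replicate numbers mark is not stated, so pairing cannot be settled. Deviations of same-numbered libraries at 60 and 90 mg/L correlated at 0.101, -0.068 and -0.112, against -0.161 to 0.227 for libraries of different number. Controls were not compared in this way. With the replicate number as a block, 0 members were called and the median stayed at 0.084. At levels of a few fragments, absence and low presence cannot be told apart.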
